A study of Mus musculus with 12 samples.

Results

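The respiratory chain and ATP synthase are built from subunits encoded in the nucleus and in mitochondrial DNA, and the RNA of both kinds was compared here in mouse PYMT mammary tumour cells given TGFB2, BMP4 or both. Members were found by gene name: the Nduf subunits of the A, B, C, S and V series, Sdha to Sdhd, names starting with Uqcr, the Cox4 to Cox8 subunits, names starting with Atp5, and the mt-Nd, mt-Co, mt-Cytb and mt-Atp genes, leaving out names that carry -ps. The rule found 102 of 54347 listed genes, 89 nuclear and 13 mitochondrial. The nuclear members comprised 40 of complex I, 4 of complex II, 8 of complex III, 19 of complex IV and 18 of complex V, and the mitochondrial ones 7 of complex I, 1 of complex III, 3 of complex IV and 2 of complex V. After the filter on low counts 94 could be tested, 81 nuclear and all 13 mitochondrial. The 8 left out were Ndufa4l2, Cox8c, Cox7b2, Cox6b2, Cox6c2, Ndufa11b, Ndufs6b and a second identifier of Atp5o. Among the nuclear members Ndufa11b, Ndufs6b, Cox6c2 and Ndufb4c are annotated as processed pseudogenes, and Ndufb4c was tested and counted with complex I. Some subunits carry names that the rule does not match, among them Cyc1 and Ndufab1.

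Complexes I, III and IV pass electrons to oxygen and pump protons across the inner mitochondrial membrane, complex II feeds in electrons from succinate, and complex V, the ATP synthase, lets the protons back to make ATP. The mitochondrial genes encode hydrophobic core subunits of complexes I, III, IV and V and are transcribed as long polycistronic RNAs by a polymerase of the organelle, whereas the nuclear genes are transcribed one by one, are translated in the cytosol and send their proteins into the organelle. Complex II is wholly nuclear-encoded. The PYMT model comes from mouse mammary tumours driven by the polyoma virus middle T antigen, and the study asked which gene programs of dormancy TGFB2 and BMP4 bring about, alone or together.

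All cells carried the label PYMT and grew in 3D in Matrigel, a basement membrane extract. There were 4 groups of 3 libraries: NT (no ligand), TGFB2 at 5 ng/mL, BMP4 at 5 ng/mL, and BMP4-TGFB2 with both ligands at 5 ng/mL. The ligands were given for 3 days, and cells were collected 2 days after the medium was changed. Poly(A) RNA was sequenced, so mitochondrial mRNA that carries a short poly(A) tail could be captured by it. Whether every mitochondrial mRNA was captured in this way was not tested. The labels call the replicates biological but do not tie them to separate animals, so each p-value here rests only on how far such cultures differ.

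Total estimated counts ran from 28543062 to 42167651 per library. The 13 mitochondrial mRNAs took 1.04% to 2.23% of them and the 89 nuclear subunits 0.863% to 1.10%. Summed CPM (counts scaled to the library's total) of 10 mammary epithelium markers lay between 5220 and 6525 in all 12 libraries, and 0 of the 10 rose while 3 fell with TGFB2 and 3 with both ligands. The 7 fibroblast markers summed to 5.10 to 13.5 CPM in NT and 19.8 to 32.4 CPM with TGFB2, and 4 of the 7 rose. Leukocyte markers summed to 2.55 to 5.35 CPM in NT and 8.98 to 11.5 CPM with TGFB2, and 2 of the 5 tested rose. Muscle markers summed to 62.3 to 138 CPM over the 12 libraries, and 0 of 9 were called. The markers within a list did not move together. Csf1r averaged 0.318 CPM in NT and 4.09 CPM with TGFB2, but Lyz2 0.559 and 0.731 CPM. Col1a1 averaged 1.63 and 7.29 CPM, but Dcn 2.86 and 2.95 CPM. Of all genes tested 11.3% rose and 11.1% fell with TGFB2, and 12.9% fell with both ligands. The part of these markers in the subunit values was not tested. Mitochondrial ribosomal RNA, which has little poly(A), took 1.01% of counts in TGFB2 replicate 1 and 0.697% in BMP4-TGFB2 replicate 1, against 0.0932% to 0.264% in the other 10 libraries.

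The RNA of mitochondrially encoded subunits stood higher relative to that of nuclear-encoded subunits in the libraries with TGFB2 than in NT replicates 2 and 3, but not than in all NT libraries. The ratio of their summed TPM (an abundance scaled by transcript length) was 1.53, 0.78 and 0.95 in NT replicates 1, 2 and 3 and 1.66, 1.90 and 1.45 with TGFB2. It was 1.14, 1.25 and 1.08 with BMP4, and 1.74, 1.71 and 1.33 with both ligands. The TGFB2 libraries overlapped NT through NT replicate 1 alone, whose ratio lay above those of the other NT libraries and of all BMP4 libraries. On the log2 scale the mean of TGFB2 was 0.67 above NT, that of BMP4 0.15 and that of BMP4-TGFB2 0.60, where the NT libraries had an SD of 0.50. Without NT replicate 1 these differences were 0.95, 0.42 and 0.88, and without NT replicate 2 they were 0.46, -0.06 and 0.40, so that the sign of the BMP4 value turned. No test was made of this ratio, which is a sum over members.

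The mean ratio stood higher with TGFB2 than in NT in each complex that draws on both genomes, but the libraries overlapped in complexes IV and V. For complex I it averaged 1.03 ± 0.306 (SD, n = 3) in NT, 1.71 ± 0.181 with TGFB2, 1.02 ± 0.117 with BMP4 and 1.65 ± 0.211 with both. For complex III the means were 1.05, 1.65, 0.991 and 1.49, for complex IV 1.98, 2.78, 2.17 and 2.70, and for complex V 0.685, 1.03, 0.745 and 0.942, in the same order. The SDs for complexes III, IV and V were 0.330, 0.811 and 0.224 in NT and 0.277, 0.337 and 0.213 with TGFB2. In all 4 complexes NT replicate 1 was the highest NT library. For complexes I and III it lay below all TGFB2 libraries. For complex IV its ratio of 2.91 lay above TGFB2 replicates 1 and 3 (2.70 and 2.49). For complex V its ratio of 0.924 lay above TGFB2 replicate 3 (0.828).

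**Figure D1:**
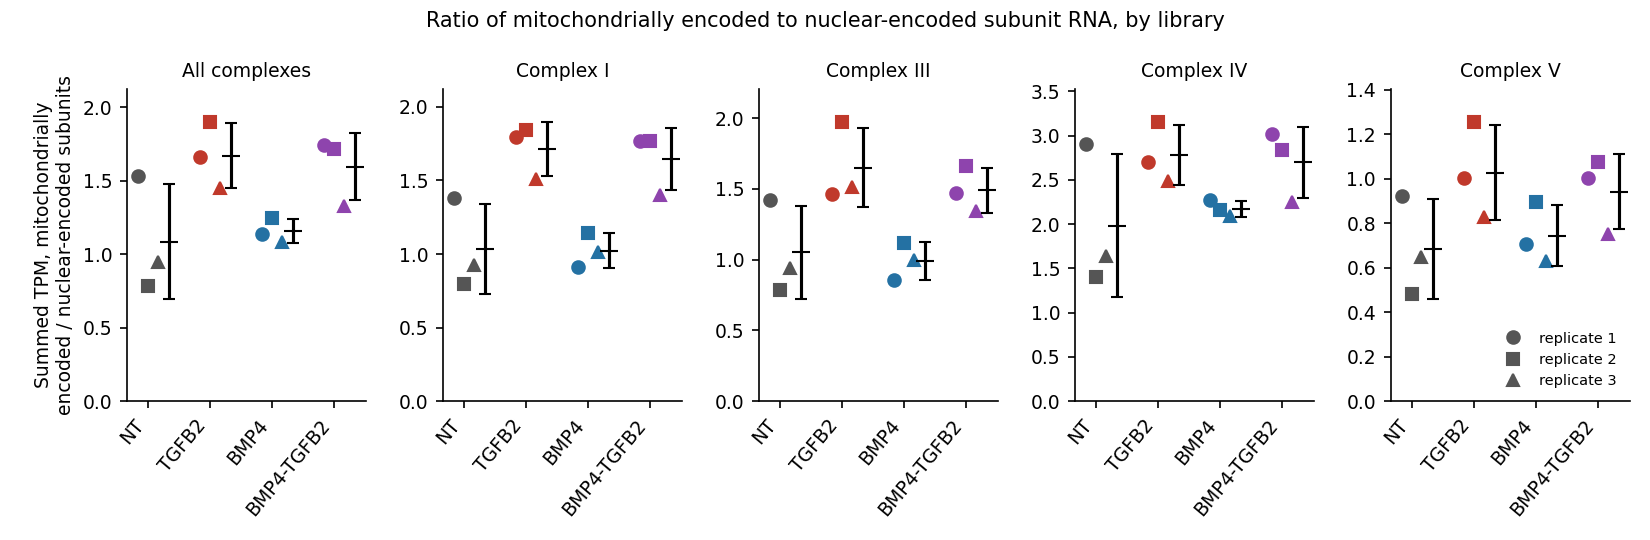
Ratio of the summed TPM of mitochondrially encoded to nuclear-encoded subunits in each library (linear axis from 0), for all complexes and for complexes I, III, IV and V; symbols mark the replicate number, and the bars the mean ± SD of 3 libraries. NT replicate 1 (1.53 for all complexes) lies within the range of the TGFB2 and BMP4-TGFB2 libraries (1.33 to 1.90), and NT replicates 2 and 3 (0.78 and 0.95) lie below it.

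Nuclear copies of mitochondrial DNA affect how some of these counts were shared out. A block of 3791 bases on the minus strand of chr1:24612407-24616197 (GRCm38.p6) holds 6 annotated copies, and Salmon divided reads between them and the mitochondrial genes. The copies held 72.4% to 87.4% of the summed counts of mt-Nd3 and its copy Gm28438 across libraries, 44.5% to 74.9% for mt-Co3, 39.1% to 60.9% for mt-Atp6, 10.96% to 39.3% for mt-Co2, 0% to 49.7% for mt-Nd4l and 0.0516% to 0.165% for mt-Co1. The shares for mt-Co1 and mt-Co2 include a copy of each on chromosome 2, Gm13340 and Gm13341, with mean counts of 24.4 and 13.5. The start of mt-Nd3 shows how little there is to tell the copies apart: over 345 aligned bases the copy differs at 1 position, T3C, counted from the first base of mt-Nd3 and printed in capitals.
mt-Nd3 (chrM:9459-9491): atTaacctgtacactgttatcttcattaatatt
Gm28438 (chr1:24613087-24613119, minus strand): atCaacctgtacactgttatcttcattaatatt
The counts of near-identical copies (at least 95% identity over 90% of the copy) were also added to their gene, a step chosen after the data had been seen. Pseudogenes that are themselves members were not added to another member. Of these Ndufb4c stood at a mean of 222 TPM over the 12 libraries, against 33.1 TPM for Ndufb4, and a sharing of reads between them was not examined.

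With TGFB2, all 13 mitochondrial mRNAs had fold changes above 0 (log2 0.38 to 1.05, median 0.50), and mt-Nd1, mt-Nd2 and mt-Nd3, all of complex I, rose. The median of all 15319 genes tested was 0.01. The 3 called were 23.1% of the 13, and 11.3% of all genes rose in this comparison (edgeR quasi-likelihood test, adjusted p under 0.05), so that a count of 3 in 13 stands above the background by few genes. By edgeR 6 of the 13 had an unadjusted p under 0.05.

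mt-Nd2 encodes a membrane subunit of complex I that belongs to its proton-pumping arm. It stood at 902, 599 and 588 CPM in NT, at 1733, 1489 and 1136 CPM with TGFB2, at 738, 783 and 716 CPM with BMP4 and at 1735, 1273 and 999 CPM with both. Every library that received TGFB2 lay above every NT and BMP4 library. The log2 fold change with TGFB2 was 1.05 ± 0.23 (SE; edgeR adjusted p = 0.00702). mt-Nd1, whose product lies beside the ubiquinone-binding site, was at 1428, 1169 and 1160 CPM in NT and at 2053, 2155 and 1673 CPM with TGFB2. The groups did not overlap, and the change was 0.63 ± 0.15 (edgeR adjusted p = 0.0108).

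mt-Nd3, which encodes a small membrane subunit of complex I, was counted at 22.8, 37.2 and 38.0 CPM in NT and 59.8, 74.0 and 56.9 CPM with TGFB2 as deposited. The change was 0.94 ± 0.24 (edgeR adjusted p = 0.0178). With the copy added it stood at 181, 199 and 219.8 CPM in NT and 279, 285 and 235 CPM with TGFB2. The groups remained apart on both scales, but the change was then 0.39 ± 0.13 (edgeR adjusted p = 0.0438), less than the deposited split gave. In that fit 11.3% of all genes rose and 11.1% fell, and mt-Nd1, mt-Nd2 and mt-Nd3 were again the 3 mitochondrial genes called.

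The other subunits of complex I encoded in the organelle, mt-Nd4, mt-Nd4l, mt-Nd5 and mt-Nd6, had changes of 0.56, 0.45, 0.38 and 0.42, none of them called. mt-Nd5 and mt-Nd6 overlap on opposite strands, mt-Nd4 and mt-Nd4l on the same one, and the sources used here do not say whether counting used strand. mt-Cytb, the catalytic core of complex III that carries its b hemes, stood at 2025, 1277 and 1274 CPM in NT and at 2177, 2688 and 1923 CPM with TGFB2. Here NT replicate 1 fell among the treated libraries, and the change of 0.55 ± 0.19 did not pass (edgeR adjusted p = 0.0581).

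For complex IV, mt-Co1, the heme and copper subunit that reduces oxygen and the most abundant member at a mean of 6822 TPM, was split inside NT. Its levels were 7864, 3844 and 3779 CPM in NT and 7234, 8553 and 5740 CPM with TGFB2. NT replicate 1 was above TGFB2 replicates 1 and 3, while the other NT libraries were below all of them, and the change was 0.46 ± 0.28 (edgeR adjusted p = 0.265). mt-Co2, which takes electrons from cytochrome c, changed by 0.47 and mt-Co3 by 0.72 ± 0.30 as deposited (edgeR adjusted p = 0.106), or 0.58 with its copy (edgeR adjusted p = 0.0546). For complex V, mt-Atp6, part of the proton channel, changed by 0.50 and mt-Atp8 by 0.40. These values did not pass the test. With copies added the changes with TGFB2 were 0.55 for mt-Nd4l, 0.46 for mt-Co1, 0.47 for mt-Co2 and 0.44 for mt-Atp6, none called.

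How many of these genes were called changed with the library left out. mt-Nd1 lost its call without NT replicate 2, and mt-Nd3 without TGFB2 replicate 2. Without NT replicate 1, 10 of the 13 rose, all but mt-Atp6, mt-Co3 and mt-Nd4l, with a median of 0.81 and a range of 0.63 to 1.28, where 12.1% of all genes rose. mt-Co1 then changed by 0.90 ± 0.22 (edgeR adjusted p = 0.0159) and mt-Cytb by 0.81 ± 0.16 (edgeR adjusted p = 0.00611). Between libraries of the same replicate number the median log2 difference of the 13 genes was 0.05 for replicate 1, 1.09 for replicate 2 and 0.58 for replicate 3. The 2 mitochondrial ribosomal RNAs rose as well, mt-Rnr1 by 2.73 ± 0.69 (edgeR adjusted p = 0.0152) and mt-Rnr2 by 1.98 ± 0.53 (edgeR adjusted p = 0.0206). Without TGFB2 replicate 1 neither was called: mt-Rnr1 changed by 1.49 ± 0.49 (edgeR adjusted p = 0.0667) and mt-Rnr2 by 1.04 ± 0.38 (edgeR adjusted p = 0.0960). Both calls were also lost without NT replicate 2 (edgeR adjusted p = 0.0634 for mt-Rnr1 and 0.0841 for mt-Rnr2) and without NT replicate 3 (0.0553 and 0.0673). In poly(A) libraries these RNAs also follow how well the selection worked; its part in the mRNA values was not tested.

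**Figure D2:**
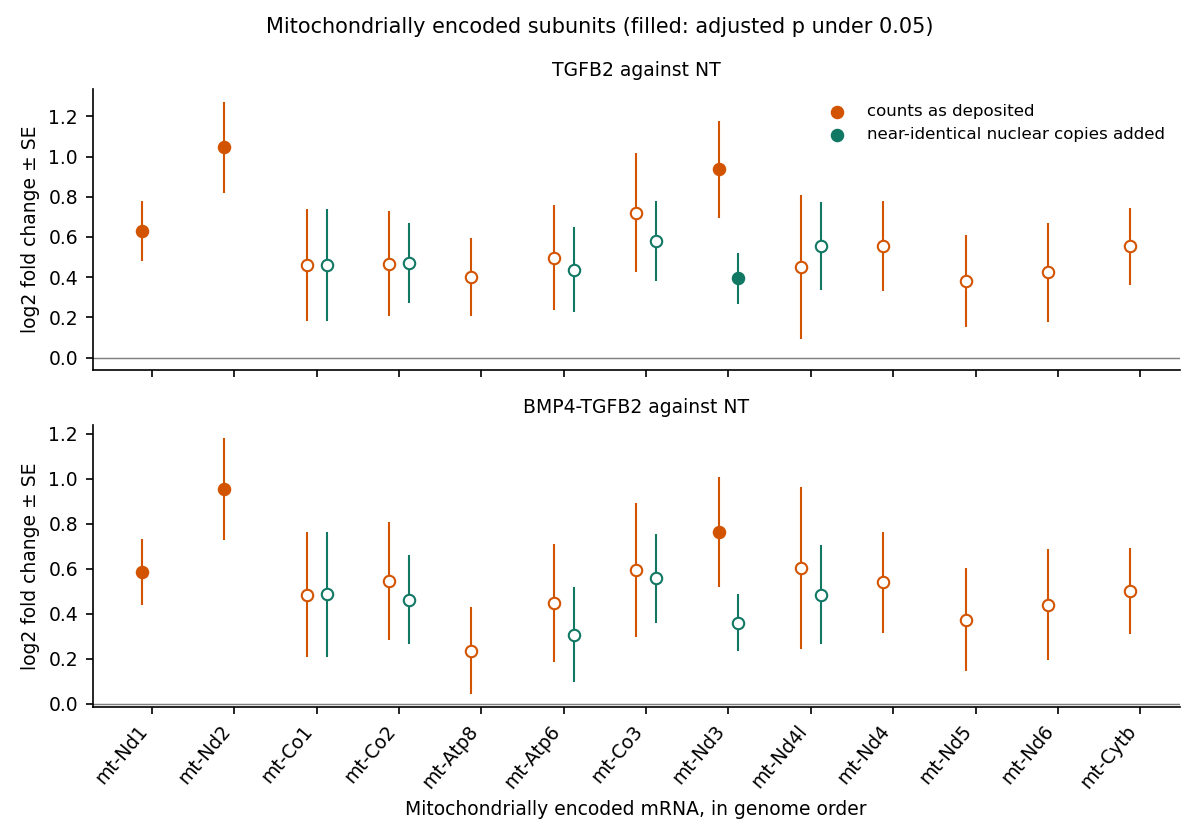
Log2 fold change ± SE (edgeR) of the 13 mitochondrially encoded mRNAs in genome order, for TGFB2 and for BMP4-TGFB2 against NT, from counts as deposited and, for genes with one, with near-identical nuclear copies added; filled points have an adjusted p under 0.05. All points lie above 0, mt-Nd2 is highest at 1.05 and 0.95, and adding the copy brings mt-Nd3 from 0.94 to 0.39 with TGFB2.

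The nuclear subunits moved less with TGFB2 and mostly downward. Of 81 tested, 9 fell and 0 rose, 58 lay below 0 and 23 above, and the median was -0.13 (range -0.57 to 1.55). At the same threshold 11.1% of all genes fell, and 9 of 81 is also 11.1%, so the nuclear subunits as a group were called lower at the background rate. For rises, 0 of 81 compares with 11.3% of all genes. edgeR gave 16 nuclear members an unadjusted p under 0.05, and 0 rose by DESeq2 or limma too.

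Complex V held 5 of the 9 falls, out of 17 tested (median -0.22), against 2 of 37 in complex I (-0.14), 1 of 4 in complex II (-0.14), 0 of 8 in complex III (-0.16) and 1 of 15 in complex IV (-0.02). Summed over its 18 nuclear genes, complex V stood at 9328 ± 731 TPM (SD, n = 3) in NT, 8043 ± 367 with TGFB2, 9084 ± 369 with BMP4 and 8051 ± 206 with both. In bulk RNA, fewer cells of a type and less RNA per cell cannot be told apart.

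Atp5c1 encodes the gamma subunit, the central shaft of the ATP synthase. Its levels were 175, 204 and 184 CPM in NT and 133, 142 and 132 CPM with TGFB2, with 169, 158 and 154 CPM under BMP4 and 132, 134 and 127 CPM with both. All 6 libraries with TGFB2 lay below all 6 without it, and the change with TGFB2 was -0.49 ± 0.10 (edgeR adjusted p = 0.00504). Atp5pb, the b subunit of the peripheral stalk, was at 227, 275 and 248 CPM in NT and 180.5, 194 and 176 CPM with TGFB2. The groups did not overlap, and the change was -0.47 ± 0.10 (edgeR adjusted p = 0.00775). Atp5pb overlaps Wdr77 on the opposite strand, which has 36.2% of its CPM and itself fell by 0.50 (edgeR adjusted p = 0.0360).

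The rotating ring of subunit c is made from 3 genes that encode the same mature protein, Atp5g1, Atp5g2 and Atp5g3. Atp5g3 was at 254, 337 and 294 CPM in NT and 203, 229 and 207 CPM with TGFB2, a change of -0.49 ± 0.12 (edgeR adjusted p = 0.0122). Atp5g1 was at 122, 141 and 116 CPM in NT and 96.4, 89.5 and 72.5 CPM with TGFB2, a change of -0.57 ± 0.16 (edgeR adjusted p = 0.0255). In both genes every NT library was above every TGFB2 library. Of the counts of Atp5g2 and the identical processed pseudogene Gm10175, 96.0% were assigned to the pseudogene. With these added, Atp5g2 stood at 129.8, 178 and 155 CPM in NT and 116, 126 and 114 CPM with TGFB2 and fell by 0.40 ± 0.13 (edgeR adjusted p = 0.0429), which brought the nuclear count in that fit to 10. Of the summed TPM of the 3 genes Atp5g2 had 1.24% in NT as deposited and 28.7% with its copy.

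The catalytic head of the enzyme is formed by Atp5a1 and Atp5b. Atp5a1, the alpha subunit, was at 953, 1043 and 1009 CPM in NT and 826, 797 and 768 CPM with TGFB2 and fell by 0.35 ± 0.10 (edgeR adjusted p = 0.0246). Atp5b, the beta subunit with the catalytic sites and among the nuclear members with the most RNA per length (1264 TPM on average, after Atp5h with 1580), was at 1287, 1496 and 1448 CPM in NT and 1107, 1077 and 1189 CPM with TGFB2. Its groups did not overlap, and its change of -0.35 ± 0.12 lay just outside the threshold (edgeR adjusted p = 0.0511).

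In complex I, Ndufs1, the largest iron-sulfur subunit of the matrix arm, was at 94.1, 96.1 and 99.9 CPM in NT and 71.4, 79.6 and 78.1 CPM with TGFB2 and fell by 0.36 ± 0.09 (edgeR adjusted p = 0.0149). Its gene overlaps Eef1b2 on the opposite strand, which is counted at 681% of its CPM and changed by 0.16 ± 0.18 (edgeR adjusted p = 0.559). Ndufc2, an accessory subunit of the membrane arm, was at 85.9, 104 and 80.5 CPM in NT and 65.5, 70.6 and 59.0 CPM with TGFB2 and fell by 0.49 ± 0.15 (edgeR adjusted p = 0.0405). The NT and TGFB2 libraries of both genes lay apart.

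Other named subunits of complex I did not pass. Ndufv1, which binds NADH and flavin, changed by 0.22, its iron-sulfur partner Ndufv2 by -0.35 (edgeR adjusted p = 0.0570), Ndufs4 by -0.46 (edgeR adjusted p = 0.0969) and Ndufa10 by -0.27 (edgeR adjusted p = 0.0754). Ndufa4, named for complex I though its protein is found with complex IV, changed by -0.19.

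In complex II, Sdha, the flavoprotein that oxidises succinate, was at 306, 331 and 309.7 CPM in NT and 236, 273 and 256 CPM with TGFB2, with no overlap, and fell by 0.33 ± 0.10 (edgeR adjusted p = 0.0331). Its partners Sdhb, Sdhc and Sdhd changed by -0.11, -0.06 and -0.18 and were not called. In complex III the nearest to the threshold was Uqcrfs1, the Rieske iron-sulfur protein, at 98.4, 120.1 and 108 CPM in NT and 90.5, 89.7 and 86.0 CPM with TGFB2 (-0.31 ± 0.11, edgeR adjusted p = 0.0545). The core proteins Uqcrc1 and Uqcrc2 changed by -0.04 and -0.12 and Uqcrb by -0.20.

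Complex IV held the only nuclear fall with TGFB2 that is not among the falls with both ligands. Cox7b, a small accessory subunit, was at 72.9, 86.9 and 70.6 CPM in NT and 59.3, 58.9 and 60.2 CPM with TGFB2 and fell by 0.39 ± 0.12 (edgeR adjusted p = 0.0413). With both ligands its libraries were at 65.0, 55.5 and 70.9 CPM, of which the highest is above the lowest NT library, and the change was -0.26 (edgeR adjusted p = 0.149). Between these groups of treated libraries the difference was 0.13 ± 0.12 and was not called. The larger nuclear subunits Cox4i1, Cox5a and Cox5b changed by 0.22, -0.05 and -0.21, and Cox6a1, Cox6b1, Cox7a2 and Cox8a by -0.02, -0.21, -0.07 and -0.13. Cox7a2l, which helps join complexes III and IV, changed by 0.41 ± 0.20 (edgeR adjusted p = 0.159).

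The count of nuclear falls with TGFB2 changed with the library left out, from 2 to 11. There were 11 without NT replicate 1 (all genes called lower: 10.8%), 2 without NT replicate 2 (6.63%), 4 without NT replicate 3 (7.5%), 5 without TGFB2 replicate 1 (7.18%) and 4 without TGFB2 replicate 3 (7.83%). Atp5c1 and Atp5pb were called in each of these fits and were the 2 called without NT replicate 2.

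**Figure D3:**
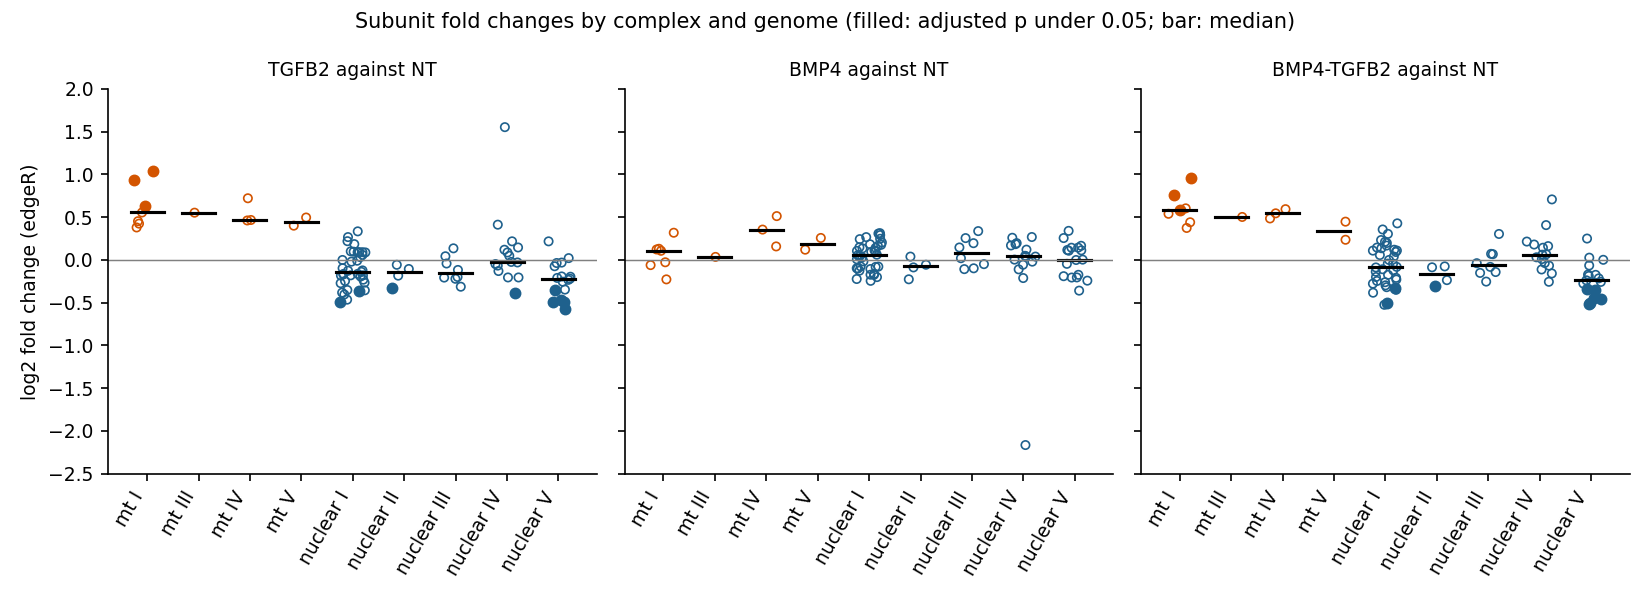
Log2 fold change (edgeR) of each tested subunit against NT, by genome and complex, for TGFB2, BMP4 and BMP4-TGFB2; filled points have an adjusted p under 0.05 and bars are medians. With TGFB2 and with both ligands the mitochondrial genes lie above 0 (medians 0.50 and 0.54) and complex V has the lowest nuclear medians (-0.22 and -0.24); with BMP4 no point is filled.

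BMP4 alone left both sets of subunits without a call. Of the 81 nuclear members 0 rose and 0 fell by edgeR, with a median of 0.04 and 7 unadjusted p under 0.05; of the 13 mitochondrial members 0 were called, with a median of 0.12 (range -0.23 to 0.51) and 0 unadjusted p under 0.05. DESeq2 called 1 nuclear member and limma on log2 TPM called 0, and neither called a mitochondrial one. In this comparison 3.19% of all genes rose and 2.25% fell, and 0 of 94 members lies below both rates.

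The members that fell with TGFB2 had smaller negative values with BMP4: -0.21 for Atp5c1, -0.17 for Atp5pb, -0.19 for Atp5g3, -0.36 for Atp5g1, -0.24 for Atp5a1, -0.22 for Ndufs1, -0.24 for Ndufc2, -0.23 for Sdha and -0.06 for Cox7b. mt-Nd1, mt-Nd2 and mt-Nd3 changed by 0.11, 0.12 and 0.32, none called, and mt-Nd3 by 0.17 with its copy added (edgeR adjusted p = 0.538). The highest nuclear values with BMP4 among the named members were those of Uqcrq and Atp5md (0.34 each), Ndufs6 (0.31), Cox6c (0.27) and Uqcrh (0.26), none of which passed.

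With both ligands the values lay close to those with TGFB2, from the same NT libraries. All 13 mitochondrial mRNAs again had changes above 0 (0.24 to 0.95, median 0.54), and mt-Nd1, mt-Nd2 and mt-Nd3 rose. Of the 81 nuclear subunits 9 fell and 0 rose (median -0.08), 6 of the 9 in complex V (median -0.24). At the same threshold 13.3% of all genes rose and 12.9% fell. The nuclear falls are 11.1% of the members, again near the background, while 3 of 13 mitochondrial members is 23.1%. edgeR gave 15 nuclear and 5 mitochondrial members an unadjusted p under 0.05, and for rises of nuclear members DESeq2 called 1 and limma 0.

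mt-Nd2 rose by 0.95 ± 0.23 (edgeR adjusted p = 0.00982). mt-Nd1 was at 2212, 1809 and 1568 CPM with both ligands, above all NT libraries, and rose by 0.59 ± 0.15 (edgeR adjusted p = 0.0135). mt-Nd3 was at 51.3, 52.1 and 61.9 CPM and rose by 0.76 ± 0.24 as deposited (edgeR adjusted p = 0.0379). With the copy added its libraries stood at 284, 255 and 224 CPM and the change was 0.36 ± 0.13 (edgeR adjusted p = 0.0560), so that 2 mitochondrial genes were called in that fit, where 13.3% of all genes rose and 12.9% fell.

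The remaining mitochondrial genes changed by 0.54 (mt-Nd4), 0.60 (mt-Nd4l), 0.37 (mt-Nd5), 0.44 (mt-Nd6), 0.50 (mt-Cytb), 0.49 (mt-Co1), 0.55 (mt-Co2), 0.59 (mt-Co3), 0.45 (mt-Atp6) and 0.24 (mt-Atp8) with both ligands, none called. With copies added they were 0.48 for mt-Nd4l, 0.49 for mt-Co1, 0.46 for mt-Co2, 0.56 for mt-Co3 and 0.31 for mt-Atp6, again with no call. Between libraries of the same number the medians of the 13 genes were 0.19, 0.78 and 0.56. Without NT replicate 1, 9 of the 13 rose, where 14% of all genes rose. 1 of the 13 was called without NT replicate 2 (7.62% of all genes), without NT replicate 3 (8.51%) or without BMP4-TGFB2 replicate 1 (9.71%).

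The 6 subunits of complex V that fell with both ligands were Atp5c1 (-0.51 ± 0.10, edgeR adjusted p = 0.00333), Atp5pb (-0.46), Atp5g3 (-0.44), Atp5g1 (-0.52), Atp5a1 (-0.34) and Atp5b (-0.35 ± 0.12, edgeR adjusted p = 0.0419). Atp5b stood at 1104, 996 and 1185 CPM, below all NT libraries. Ndufs1 fell by 0.33, Ndufc2 by 0.50 and Sdha by 0.30 ± 0.10 (edgeR adjusted p = 0.0401). With the copy added, Atp5g2 changed by -0.36 (edgeR adjusted p = 0.0609).

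With a library left out, between 2 and 11 nuclear members were called lower with both ligands. There were 11 without NT replicate 1 (all genes called lower: 12.5%), 2 without NT replicate 2 (8.3%), which were Atp5c1 and Atp5pb, and 3 without NT replicate 3 (9%), these and Ndufc2. Leaving out BMP4-TGFB2 replicate 1, 2 or 3 gave 5 each, against 8.83%, 9.61% and 10.2% of all genes.

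**Figure D4:**
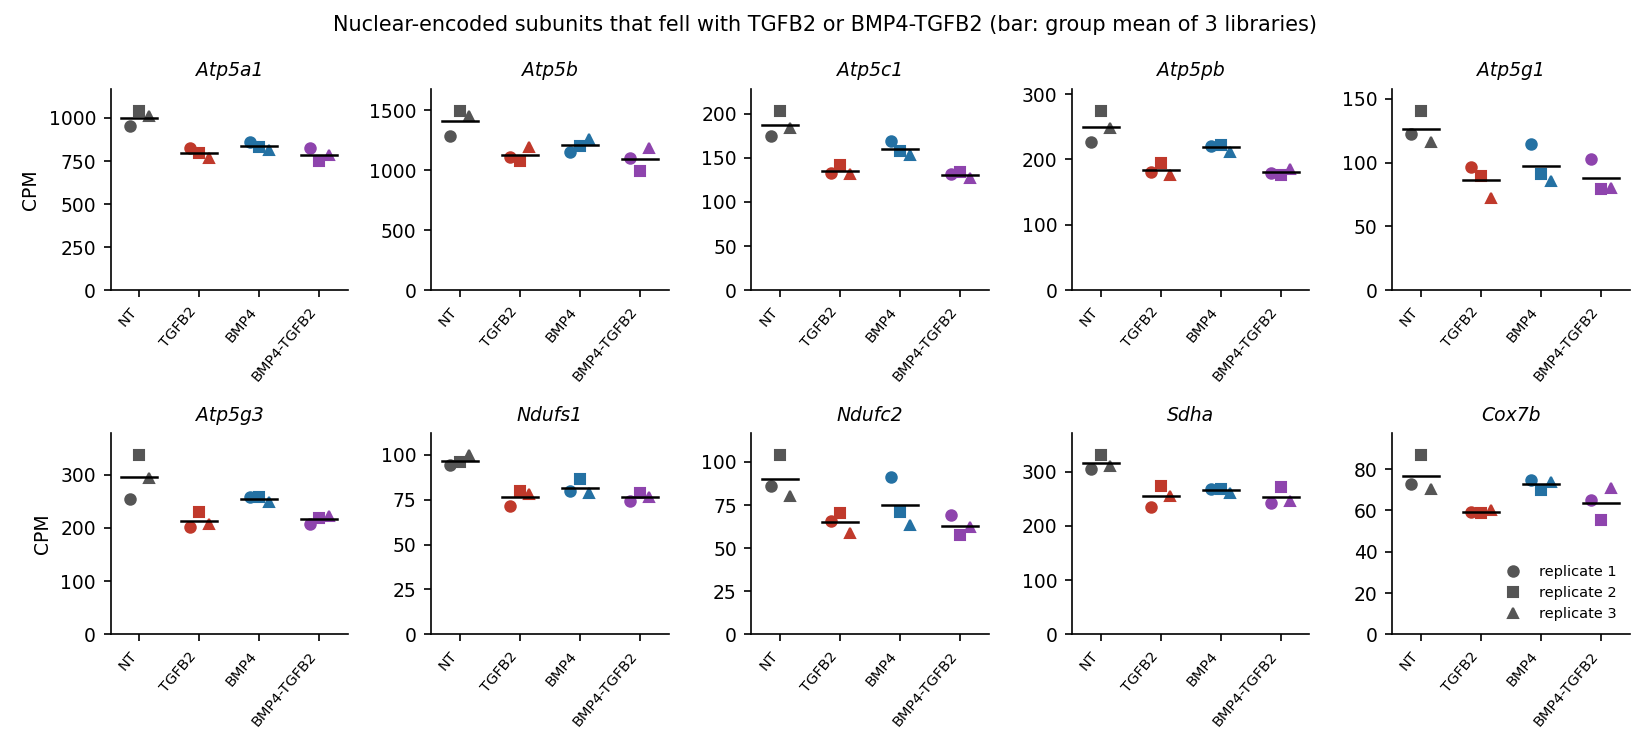
CPM of the 10 nuclear-encoded subunits that fell with TGFB2 or with both ligands, by library (linear axes from 0; symbols mark the replicate number and bars the mean of 3 libraries). For Atp5c1 the NT libraries lie at 175 to 204 CPM, the BMP4 libraries at 154 to 169 and the 6 libraries with TGFB2 at 127 to 142.

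Adding BMP4 to TGFB2 was followed by no called difference in any member. Across all genes 0% rose and 0% fell by edgeR in BMP4-TGFB2 against TGFB2, with 516 genes at an unadjusted p under 0.05, and DESeq2 called 20 genes higher and 31 lower. The 13 mitochondrial members had a median difference of -0.04 (range -0.17 to 0.15) and the 81 nuclear members one of 0.04, and 0 of either had an unadjusted p under 0.05 or a call by DESeq2 or limma.

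Adding TGFB2 to BMP4 raised mt-Nd2 by 0.83 ± 0.23 (edgeR adjusted p = 0.0413), the only member called in BMP4-TGFB2 against BMP4 by the main fit, which does not pair libraries. The median was 0.44 for the 13 mitochondrial members, all above 0, and -0.12 for the 81 nuclear ones, of which 62 were below 0. In this comparison 4.24% of all genes rose and 4.98% fell. mt-Nd2 was not called without NT replicate 2 or 3, TGFB2 replicate 2, any BMP4 library or BMP4-TGFB2 replicate 1 or 2.

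Libraries of these groups with the same replicate number deviated together (the correlations are given with the processing). With the replicate number as a block, 10.7% of all genes rose and 12% fell. mt-Nd1 (0.46 ± 0.11, edgeR adjusted p = 0.0108), mt-Nd2 (0.79), mt-Nd4 (0.55), mt-Nd5 (0.59) and mt-Cytb (0.46 ± 0.14, edgeR adjusted p = 0.0416) then rose. Among the nuclear members Ndufv1 rose by 0.25 (edgeR adjusted p = 0.0483), and Ndufb2, Atp5c1 and Atp5pb fell by 0.49, 0.30 and 0.28. Ndufb2 overlaps Braf on the opposite strand, which has 82.5% of its CPM.

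No member had a called interaction, the test of whether the effect of TGFB2 differs with and without BMP4. It was called for 0 of the 94 members by edgeR, DESeq2 and limma, with 0 unadjusted p under 0.05 by edgeR, where 0.0522% of all genes had a positive and 0.104% a negative interaction. The median was -0.15 for the mitochondrial and -0.01 for the nuclear members.

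Several subunits of complexes I and IV exist in tissue-specific or hypoxia-linked forms, and the ubiquitous form dominated in every library. Of the TPM of each pair, Cox4i2 took 0% to 0.0840%, Cox6a2 0.237% to 0.984%, Cox7a1 5.31% to 10.4%, Cox8b 0.414% to 1.62%, Cox6b2 0% to 0.122% and Ndufa4l2 0% to 0.0658%. Cox6a2, Cox7a1 and Cox8b, the muscle forms, changed by 0.09, -0.03 and 0.15 with TGFB2 and were not called. Cox4i2, at 0.38 CPM or below in all libraries, has the widest fold changes in the plot by complex, 1.55 ± 0.88 with TGFB2 and -2.17 ± 1.14 with BMP4, neither of them called.

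Regulators of mitochondrial gene expression moved unevenly. Ppargc1a, the coactivator PGC-1alpha that drives mitochondrial biogenesis, stood at 46.2, 11 and 5.57 CPM in NT, at 14.6, 6.46 and 1.61 CPM with BMP4, at 0.949, 0.428 and 0.846 CPM with TGFB2 and at 0.826, 0.736 and 0.743 CPM with both. Every library with TGFB2 was under 1 CPM and below every library without it, and NT replicate 1 had the highest level. The log2 change was -4.80 ± 0.91 with TGFB2 (edgeR adjusted p = 0.00321), -4.73 ± 0.91 with both (edgeR adjusted p = 0.00293) and -1.44 with BMP4 (edgeR adjusted p = 0.357). Without NT replicate 1 the change was -3.48 ± 0.73 with TGFB2 (edgeR adjusted p = 0.0075) and -3.41 ± 0.73 with both (edgeR adjusted p = 0.00713).

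Esrrg, an orphan nuclear receptor that works with PGC-1 coactivators, fell by 4.02 with TGFB2 (edgeR adjusted p = 0.00561) from 4.07, 1.35 and 0.659 CPM, and by 3.01 without NT replicate 1 (edgeR adjusted p = 0.0212). Ppargc1b fell by 2.58 with BMP4 (edgeR adjusted p = 0.0397) from at most 1.53 CPM, a call that was lost without any 1 of the BMP4 or TGFB2 libraries or NT replicate 2 or 3 (edgeR adjusted p from 0.0590 to 0.152). Nrf1 and Esrra, transcription factors of nuclear respiratory genes, and Tfam and Polrmt, which transcribe mitochondrial DNA, changed with TGFB2 by -0.21, 0.18, -0.16 and -0.24, none called. Over the list of biogenesis regulators 0 rose and 2 fell of 16 tested with TGFB2, a share near the 11.1% of all genes that fell.

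Of 20 tested genes that handle mitochondrial RNA, 0 rose and 5 fell with TGFB2 (median -0.24), and 0 rose and 5 fell with both ligands, where 11.1% and 12.9% of all genes fell. Pnpt1, a mitochondrial RNA exonuclease, went from 44.2, 53.5 and 49.0 CPM in NT to 23.5, 20.3 and 27.4 CPM with TGFB2, a fall of 1.06 ± 0.16 (edgeR adjusted p = 0.00082), and was also lower with BMP4 at 24.7, 32 and 33 CPM. Lrpprc, which stabilises mitochondrial mRNAs, went from 92.8, 93.1 and 97.7 CPM to 73.3, 68.7 and 76.5 CPM (-0.39 ± 0.09, edgeR adjusted p = 0.0109). For both genes no TGFB2 library reached the NT range. Elac2 and Tbrg4, which act on tRNA ends and on mitochondrial transcripts, fell by 0.74 and 0.58.

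**Figure D5:**
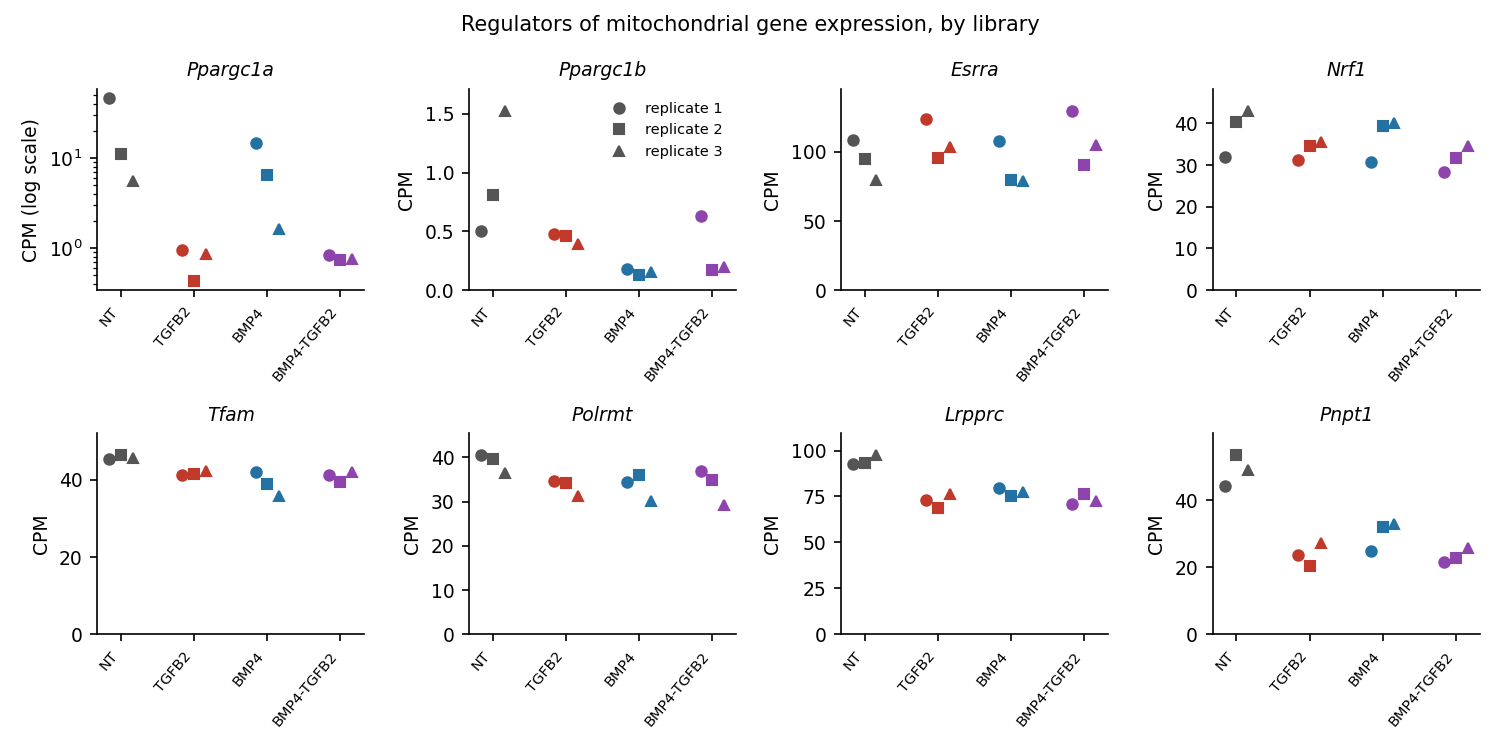
CPM of 8 regulators of mitochondrial gene expression by library (Ppargc1a on a log axis, the others on linear axes from 0; symbols mark the replicate number). Ppargc1a lies at 0.428 to 0.949 CPM in the 6 libraries with TGFB2 and at 1.61 to 46.2 CPM in the 6 without it, while Tfam lies in a narrow range in all groups.

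The electron carriers and factors around the chain gave the following counts with TGFB2. Of 16 genes for cytochrome c, cytochrome c1 and coenzyme Q synthesis 1 rose and 5 fell, among them Cyc1, the heme subunit of complex III that the name rule misses (-0.36, edgeR adjusted p = 0.0480), Cycs, the mobile carrier cytochrome c (-0.33, edgeR adjusted p = 0.0474), and Coq4 (-0.76), while Coq10b rose by 0.99 (edgeR adjusted p = 0.0027). Of the assembly factors, 2 of 16 fell for complex I, among them Ndufaf5 (-0.78), 2 of 22 fell for complex IV, among them Cox10 (-0.48), 1 of 4 rose for complex II, Sdhaf2 (0.38), and 0 of 6 and 0 of 5 were called for complexes III and V. Of 20 genes for maintaining and transcribing mitochondrial DNA 2 rose, Dguok (0.77) and Tfb2m (0.57). These counts stand beside 11.3% of all genes higher and 11.1% lower, and most rest on 1 or 2 genes.

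The regions upstream of the nuclear members are shown because 5 and 6 genes of complex V fell in the comparisons above. RefSeq sequences of GRCm38.p6 covering the 250 bases before the start were matched by symbol for 69 of the 89 nuclear members. The letters CCAAT, on either strand, occurred in 30 of the 69 windows and in 37.5% of 27025 genes; GCGCATGC, a core of sites for NRF1, in 8 of 69 against 2.56%; and CCGGAAG, a core of ETS sites, in 12 of 69 against 7.83%. For complex V CCAAT occurred in 9 of 16. Among the 10 members that fell in either comparison 8 had a window, of which 7 held CCAAT and 0 held GCGCATGC or CCGGAAG. The CCAAT search was chosen after these sequences had been read, and a match describes the letters and no more. Most of these windows lie partly or wholly in annotated exons: 250 of 250 bases for Atp5pb, 152 and 168 for the 2 windows of Atp5c1, 140 for Sdha, 39 for Atp5g1, 34 for Atp5b and 0 for Atp5g3. In the 3 windows printed, which belong to the c ring and the catalytic beta subunit, each CCAAT or its reverse complement is in capitals.
Atp5g3 (chr2:73911327-73911446, minus strand, 120 to 1 bases before the start): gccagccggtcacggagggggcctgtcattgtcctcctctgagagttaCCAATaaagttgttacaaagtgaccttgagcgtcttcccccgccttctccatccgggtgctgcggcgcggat
Atp5g1 (chr11:96075671-96075790, minus strand, 159 to 40 bases before the start): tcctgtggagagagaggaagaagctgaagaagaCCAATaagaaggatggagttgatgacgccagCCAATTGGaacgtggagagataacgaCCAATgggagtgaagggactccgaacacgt
Atp5b (chr10:128083153-128083272, plus strand, 154 to 35 bases before the start): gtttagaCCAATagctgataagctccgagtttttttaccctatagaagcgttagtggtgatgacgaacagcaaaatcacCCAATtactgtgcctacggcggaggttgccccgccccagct
In Atp5g1 the run CCAATTGG holds one box on each strand, which overlap.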

How the data were processed

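RNA-seq of 12 libraries, 4 groups of 3, was analysed from gene tables. Per the submitters' processing notes and the labels, reads were prepared with bcl2fastq 2.17, STAR 2.7.5b and Salmon 1.2.1 on GRCm38.p6; the deposited tables hold estimated counts and TPM per gene. Of the estimated counts 82.9% were whole, and rounding changed the total by 0.000361%. TPM, as the authors deposited them, gave levels between genes; CPM was computed here from each library's total (28543062 to 42167651 counts). Depth limits members with few counts, such as Cox4i2. No libraries were near duplicates (lowest chi-square per degree of freedom 18.9).

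Rounded counts were fitted with edgeR 4.0.16 in R 4.3.3 (TMM, filterByExpr with a minimum count of 10, quasi-likelihood test, 1 model with 4 group means), leaving 15319 genes, with Benjamini-Hochberg adjustment over all of them and a threshold of 0.05. The biological coefficient of variation was 0.299. The code of the fits was run on simulated counts with the same spread for every gene and unlinked libraries. That run cannot show how the test handles outlying or same-numbered libraries in these data. TMM factors were 0.971 to 1.03. The comparisons of TGFB2, BMP4 and BMP4-TGFB2 with NT share the NT libraries. Alternatives were DESeq2 1.42.0, limma 3.58.1 on log2(TPM + 1), other scalings and filters, a replicate block, each library left out and, added after the data had been seen, near-identical copies found with BLAST 2.17.0 and every replicate 1 left out. Members and supporting lists were chosen with earlier results of these data known. Genes were named by a rule: every mitochondrial member, up to 3 nuclear members per complex and comparison by p, a set list of catalytic subunits and isoforms, called members in other comparisons, and up to 3 genes per supporting list. The upstream motifs were chosen after the members were known.

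Replicate numbers come from the titles. Same-numbered libraries' deviations from their group means correlated at 0.143 to 0.413 for BMP4 and NT, and at 0.188 to 0.449 for BMP4-TGFB2 and TGFB2. For BMP4-TGFB2 and BMP4 the correlations were 0.126 to 0.311. The number was taken to pair these only in the fit with the replicate block. The main fit used the group alone, so its p-values leave this pairing out. The deposited normalized counts were not used here.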

Additional observations from a re-analysis of the deposited data

How the results depend on the processing

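No called member, and no called supporting gene picked by the naming rule, changed direction under any alternative. Other called supporting genes were not followed through the alternatives. Of 111 called results for single genes, 37 kept their call in every alternative and 74 lost it in at least 1; Atp5c1 (TGFB2 and both ligands against NT), Atp5pb (both ligands) and mt-Nd2 (TGFB2 and both ligands against NT) were among those that kept it. Counts of nuclear members called for TGFB2 against NT were 9 as reported, 4 with no filter on low counts, 14 by DESeq2, 2 with only the groups compared in the fit, 14 with copies added and every replicate 1 left out, and 2 to 11 with a library left out. For both ligands against NT they were 9, 5 with no filter, 2 with only the groups compared, and 2 to 11 with a library left out. DESeq2 called 1 nuclear member for BMP4 against NT and 2 for BMP4-TGFB2 against BMP4, where edgeR called 0. Counts of mitochondrial members for TGFB2 against NT were 3 as reported, 9 with every replicate 1 left out, 10 with that and copies added, and 2 to 10 with a library left out. For both ligands against NT they were 3, then 7, 8, and 1 to 9. For BMP4-TGFB2 against BMP4 they were 1 as reported, 2 by DESeq2, 0 by limma, 0 with copies and every replicate 1 left out, and 0 to 3 with a library left out. The cause of these shifts was not tested, other than that fits with fewer libraries or groups have fewer degrees of freedom. Most of these counts stand without the share of all genes called in the same fit, so they are not a result about the members.

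In TGFB2 against NT the correlations of same-numbered libraries were 0.0705 to 0.283, and 6 of 6 libraries correlated best with their own number. In BMP4-TGFB2 against NT the correlations were 0.024 to 0.21, and 4 of 6 libraries did so. This is a hint from the data of a link, while the labels give only the shared number. The p-values of the main fit leave such a pairing out in these 2 comparisons too. With the replicate block, nuclear calls there were 18 (1 higher, 17 lower; 19 with copies) and 16 (4 higher, 12 lower; 17 with copies), and mitochondrial calls 7 (9 with copies) and 7 (8 with copies). For BMP4-TGFB2 against BMP4 the block gave 4 nuclear calls, with copies 4, and 5 mitochondrial calls, with copies 6. It changed no count in the other comparisons. The block also raised the share of all genes called. In BMP4-TGFB2 against BMP4 that share went from 4.24% to 10.7% higher and from 4.98% to 12% lower. For the comparisons with NT the shares under the block are not given here, so these counts are not a result about the members.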

Other observations

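Antioxidant genes were the supporting list with the most rises. Of 14 tested, 8 rose and 1 fell with TGFB2 (median 0.69), and 8 rose and 1 fell with both ligands. Of all genes tested, 11.3% rose and 11.1% fell with TGFB2, and 13.3% rose and 12.9% fell with both. Gclc, which makes the first step of glutathione synthesis, stood at 119, 57.4 and 122 CPM in NT, 542, 493 and 317 CPM with TGFB2, 379, 217 and 321 CPM with BMP4 and 623, 698 and 313 CPM with both. Its log2 change was 2.17 ± 0.37 with TGFB2 (edgeR adjusted p = 0.00173) and 1.65 ± 0.36 with BMP4 (edgeR adjusted p = 0.0240). Srxn1, which repairs oxidised peroxiredoxins, rose by 1.80 ± 0.26 with TGFB2 and the mitochondrial and peroxisomal peroxiredoxin Prdx5 by 1.18 ± 0.15, while Prdx3, the peroxiredoxin of the mitochondrial matrix, fell by 0.62 ± 0.12 (edgeR adjusted p = 0.00469).

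Several fuel supply and import genes of the organelle fell. Of 21 citric acid cycle and pyruvate entry genes 0 rose and 8 fell with TGFB2 (median -0.32), and 0 rose and 5 fell with both. Pdk1, the kinase that holds back pyruvate dehydrogenase, went from 60.7, 56.7 and 48.8 CPM in NT to 29.4, 20.8 and 21.8 CPM with TGFB2 (-1.22 ± 0.16, edgeR adjusted p = 0.000326), and Pdha1, a subunit of that enzyme, fell by 0.50. Of 24 membrane, import and chaperone genes 0 rose and 6 fell with TGFB2, among them Slc25a5, an ADP/ATP carrier, from 469, 665 and 628 CPM to 312, 353 and 371 CPM (-0.79 ± 0.15, edgeR adjusted p = 0.00318), Mfn1 (-0.74) and Chchd3 (-0.63). Of 78 mitochondrial ribosomal proteins 0 rose and 7 fell with TGFB2, among them Mrpl42 (-0.74). Of 14 integrated stress response genes 0 rose and 2 fell, Psat1 (-1.54) and Phgdh (-1.06). As in the report, 11.3% of all genes rose and 11.1% fell with TGFB2, and 13.3% rose and 12.9% fell with both ligands. The falls among mitochondrial ribosomal proteins and integrated stress response genes are shares near that of all genes.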
